A study of Mus musculus with 8 samples.

Results

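Basal cells of mouse back skin epidermis were compared between skin expanded by force for 4 days and skin treated with 12-O-tetradecanoylphorbol-13-acetate (TPA), across 17097 genes. The comparison took 5 of the 8 arrays of the study, namely the 3 titled EXPD4 and the 2 titled TPA. All animals were CD1 mice, an outbred laboratory strain, with no engineered allele named in the labels, and each array came from a different mouse. The expanded group had force-mediated tissue expansion and was taken at day 4. The TPA group had the phorbol ester, whose dose, schedule and vehicle are not given in the sources used here. The remaining 3 arrays came from untreated control mice. They entered the estimate of the spread between arrays, and their values are given for some of the named genes. For every array 300 living cells were sorted that carried the integrin ITGA6 and lacked CD34, a gate that takes in interfollicular and infundibulum cells and leaves out the hair follicle bulge. Each gene was represented by 1 probe set, the one with the highest mean over all 8 arrays, and control probe sets were left out.

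Skin that is stretched by an expander grows: basal keratinocytes sense the pull through their adhesions and actin cytoskeleton, divide more and lay down new tissue. TPA mimics diacylglycerol, activates protein kinase C and through it the MAPK pathway and the AP-1 transcription factors, and is known in mouse skin for thickening the epidermis, inducing ornithine decarboxylase and the wound keratins, and drawing in inflammatory cells. AP-1 is a dimer of Fos, Jun and Atf proteins, whose genes belong to the immediate early class that responds to growth factors, stress and tissue handling within minutes. YAP and TAZ are transcriptional coactivators that respond to cell shape and tension. The comparison asks how basal cells under a mechanical stimulus differ from basal cells under a chemical one, both known to enlarge the epidermis.

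Values are log2 signals of robust multi-array average (RMA) normalization, and differences are expanded minus TPA on the log2 scale, ± SE of the fit, so that 1 is a doubling. A gene passed the test at an adjusted p below 0.05 (limma, moderated over all genes, Benjamini-Hochberg adjustment). The arrays carry no detection calls here. A background limit was set per array from 77 genes of odorant, pheromone and trace amine receptors, at their 95th percentile (6.40 to 6.56), and 33.2% of the genes lay under it on every array. Where the dimmer group lay under it on each array, the difference is given as a bound ("at least"), counted from the limit. Arrays correlated across genes at r = 0.9938 to 0.9940 within the expanded group, at 0.9903 between the TPA arrays, and at 0.9816 to 0.9870 between the groups. With 3 arrays against 2, the number of animals limits the precision. The gate was met in both groups: Itga6 was at 11.80 ± 0.04 (SD, n = 3) in the expanded arrays and 11.58 ± 0.09 (SD, n = 2) in the TPA arrays, with a difference of 0.22 ± 0.08 that did not pass (adjusted p = 0.144), and Cd34 lay under the limit on all arrays. The basal keratins Krt5 (-0.04 ± 0.07) and Krt14 (-0.02 ± 0.07) did not pass.

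The groups are named by their labels, although genes known to respond to phorbol ester point both ways. Those fixed for a check of the labels did not run with them. Krt6a, a keratin of wounded and hyperproliferative epidermis, was at 13.15, 13.15 and 13.12 in the arrays labelled expanded, at 12.44 and 12.65 in those labelled TPA, and at 13.23 ± 0.06 (SD, n = 3) in those labelled control. Krt16, its pairing partner, stood at 12.86, 12.93 and 12.90, at 12.20 and 12.10, and at 13.04 ± 0.01. Odc1, the ornithine decarboxylase that TPA is known to induce, stood at 9.82, 9.70 and 9.99 in expanded, at 8.93 and 9.05 in TPA and at 11.34 ± 0.02 in control arrays. In each of these 3 genes the TPA arrays were the lowest and the control arrays the highest. Ptgs2, the inducible cyclooxygenase that also responds to TPA, did not differ past the threshold (0.03 ± 0.33, adjusted p = 0.977). Krt6a, Krt6b, Krt16, Odc1 and Ptgs2 had been fixed for this check, and none of them passed with higher signals in TPA arrays. Other genes of the MAPK and AP-1 response ran with the labels, highest in the TPA arrays. They were taken from the genes past the threshold in these data, so that they are no independent check. Jun was at 11.96 ± 0.02 (SD, n = 2) in TPA arrays against 11.08 ± 0.16 in expanded and 10.76 ± 0.14 in control arrays, and Fosl1 at 11.47 ± 0.07 against 10.19 ± 0.26 and 10.97 ± 0.04. Serpinb2, a protease inhibitor gene, was at 10.09 ± 0.10 against 8.28 ± 0.33 and 8.81 ± 0.26, and Dusp1 at 12.61 ± 0.02 against 12.01 ± 0.11 and 12.01 ± 0.10. Whether the labels are right was not settled by these genes. Directions are given by label throughout. Had TPA and control labels been swapped, the values below would compare expanded with untreated skin.

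Between the arrays labelled expanded and TPA, 1022 of 17097 genes passed (5.98%), 541 of them higher in expanded (3.16% of all genes) and 481 lower (2.81%). At 2-fold or more, 190 genes passed (1.11%), of which 96 were higher (0.562%) and 94 lower (0.55%). The median difference over all genes was 0.03, with 10026 differences above 0 and 7071 below. In each of the 1022 genes the 3 expanded arrays lay on the same side of both TPA arrays, as they did in 35.7% of all genes, 21.8% with expanded above and 13.9% with expanded below. Of the 1022 genes, 541 had other probe sets, and in 198 of these another probe set passed in the same direction. In 1, Bcl2l2, another passed in the opposite one. The count depended on single arrays, falling to 636 without EXPD4 replicate 2, 560 without EXPD4 replicate 3 and 568 without TPA replicate 1. Fits were repeated with other samples, normalizations, filters, probe set rules and variance models and with each array left out. Over these 17 fits, the full one included, 291 genes passed in each, 160 of them higher and 131 lower, and "every fit" below means these 17. They leave out the stricter test against a fold of 1.5, which 64 genes passed.

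**Figure D1:**
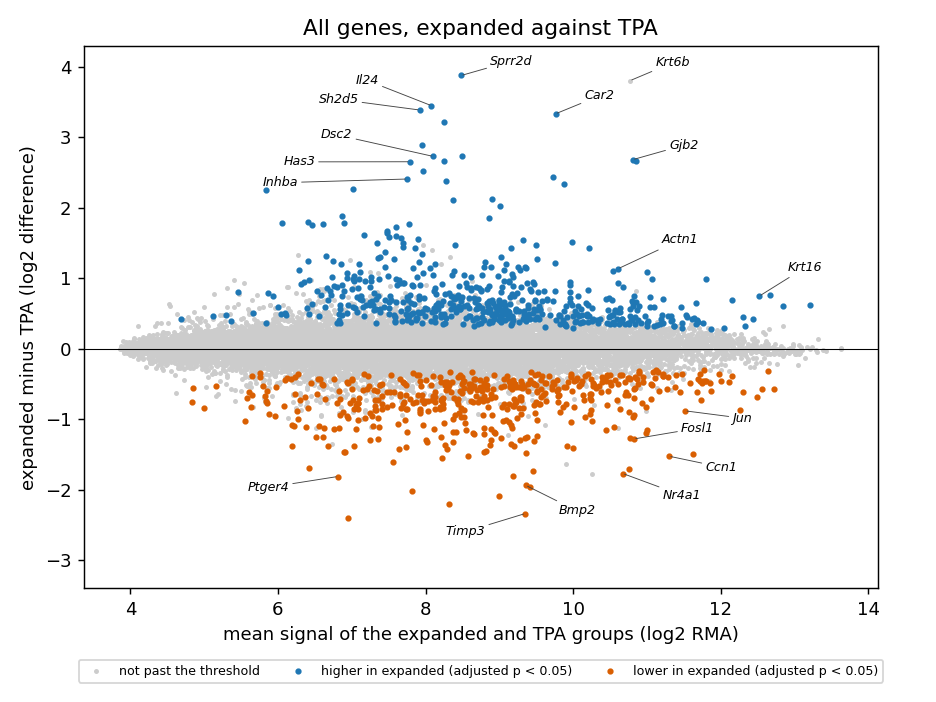
Difference between the expanded and TPA arrays (log2, vertical) against the mean of both group means (log2 RMA signal, horizontal) for 17097 genes, 1 point per gene. The 541 blue points passed the test with higher signals in expanded arrays, the 481 orange points with lower ones, and the grey point of Krt6b (3.81) did not pass, with TPA arrays at 6.47 and 11.27.

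The 15 genes with the largest rises included envelope and junction proteins, secreted signals and cell surface proteins of stressed keratinocytes. They ranged from 2.41 to 3.88 on the log2 scale, and all 15 passed in each of the 17 fits. Sprr2d, a small proline-rich precursor of the cornified envelope, was at 9.997, 10.995 and 10.282 in expanded arrays against 5.93 and 7.15 in TPA arrays, a difference of 3.88 ± 0.39 (adjusted p = 0.00137). Car2, a cytosolic carbonic anhydrase, was at 11.27, 11.47 and 11.55 against 7.79 and 8.41, or 3.34 ± 0.17 (10.1-fold, adjusted p = 5.16e-05). No expanded array came within 2 log2 units of a TPA array in either gene. The control arrays were at 11.27 ± 0.33 (SD, n = 3) for Sprr2d and 11.37 ± 0.10 for Car2. Il24, a cytokine of the interleukin-10 family made by wounded keratinocytes, was at 9.15, 10.40 and 9.86 in expanded arrays and under the limit in both TPA arrays, and so was higher by at least 3.33 (10.0-fold, adjusted p = 0.000739). Sh2d5, which encodes an SH2 domain protein, was higher by at least 3.13 (adjusted p = 7.34e-05), again with both TPA arrays under the limit.

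Cell surface and secreted products made up much of the rest. Pdpn, the membrane glycoprotein podoplanin of wound-edge keratinocytes, was at 10.85, 11.05 and 10.96 in expanded and at 8.62 and 8.41 in TPA arrays (2.44 ± 0.10, adjusted p = 2.59e-05). Procr, the protein C receptor, differed by 2.66 ± 0.13, and Has3, a hyaluronan synthase, by 2.66 ± 0.14. Among 8 measured genes of hyaluronan synthesis, breakdown and binding, a list chosen after the values were seen, Has3 was the only one past the threshold. Inhba, the subunit of activin A, was at 8.49, 9.31 and 9.06 against 6.46 and 6.63 (2.41 ± 0.23, adjusted p = 0.00105), and at 11.71 ± 0.25 in control arrays. The 1 other probe set of Inhba differed with the opposite sign and did not pass. 2610528A11Rik, whose human counterpart encodes a ligand of the receptor GPR15, was at 12.13, 12.22 and 12.22 against 9.33 and 9.71 (2.67 ± 0.11), close to its control level of 12.05 ± 0.04. Smim3, a small membrane protein, differed by 2.89 ± 0.17.

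The 15 largest falls held regulators of the extracellular matrix, signalling genes and transcription factors, and ranged from -2.40 to -1.55. Also among them was the X-inactivation transcript Xist (-1.71 ± 0.13), which passed in every fit and is described with Y-linked genes in the closing observations. Timp3, an inhibitor of metalloproteinases that binds to matrix, was at 8.12, 8.50 and 7.92 in expanded arrays and at 10.62 and 10.42 in TPA arrays (-2.34 ± 0.32, adjusted p = 0.00528), and 3 other probe sets of the gene passed in the same direction. Bmp2, a bone morphogenetic protein, was at 8.32, 8.64 and 8.21 against 10.34 and 10.33 (-1.94 ± 0.14, adjusted p = 0.000262). The control means were lower still, 7.36 ± 0.65 for Timp3 and 7.58 ± 0.16 for Bmp2. Spock2, a matrix proteoglycan, differed by -1.73 ± 0.08, Adamts9, a secreted protease that cleaves proteoglycans, by -2.02 ± 0.16, and Gpha2, a subunit of a glycoprotein hormone, by -1.96 ± 0.25. Ptger4, the EP4 receptor for prostaglandin E2, was at 7.83 and 7.61 in TPA arrays and under the limit in all 3 expanded arrays, lower by at least 1.24 on the log2 scale (adjusted p = 9.23e-05). Tmem45a2, which encodes a transmembrane protein, was at 8.16 and 8.14 in TPA arrays and under the limit in expanded and control arrays, lower by at least 1.67 (adjusted p = 7.68e-05). Of the 15, 11 passed in every fit. Plagl1 (-2.09 ± 0.50) passed narrowly (adjusted p = 0.0467) and lost its call without any single array except EXPD4 replicate 2 (adjusted p up to 0.195). Pfn2, a profilin that regulates actin, lost it without control replicate 3, any 1 of the expanded arrays or TPA replicate 1 (adjusted p up to 0.157). Serpinb7, a serine protease inhibitor, lost it without any 1 of the control arrays or either TPA array (adjusted p up to 0.133). Col6a1 (-2.20 ± 0.38, adjusted p = 0.0138) lost it without TPA replicate 1 (adjusted p = 0.0742).

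**Figure D2:**
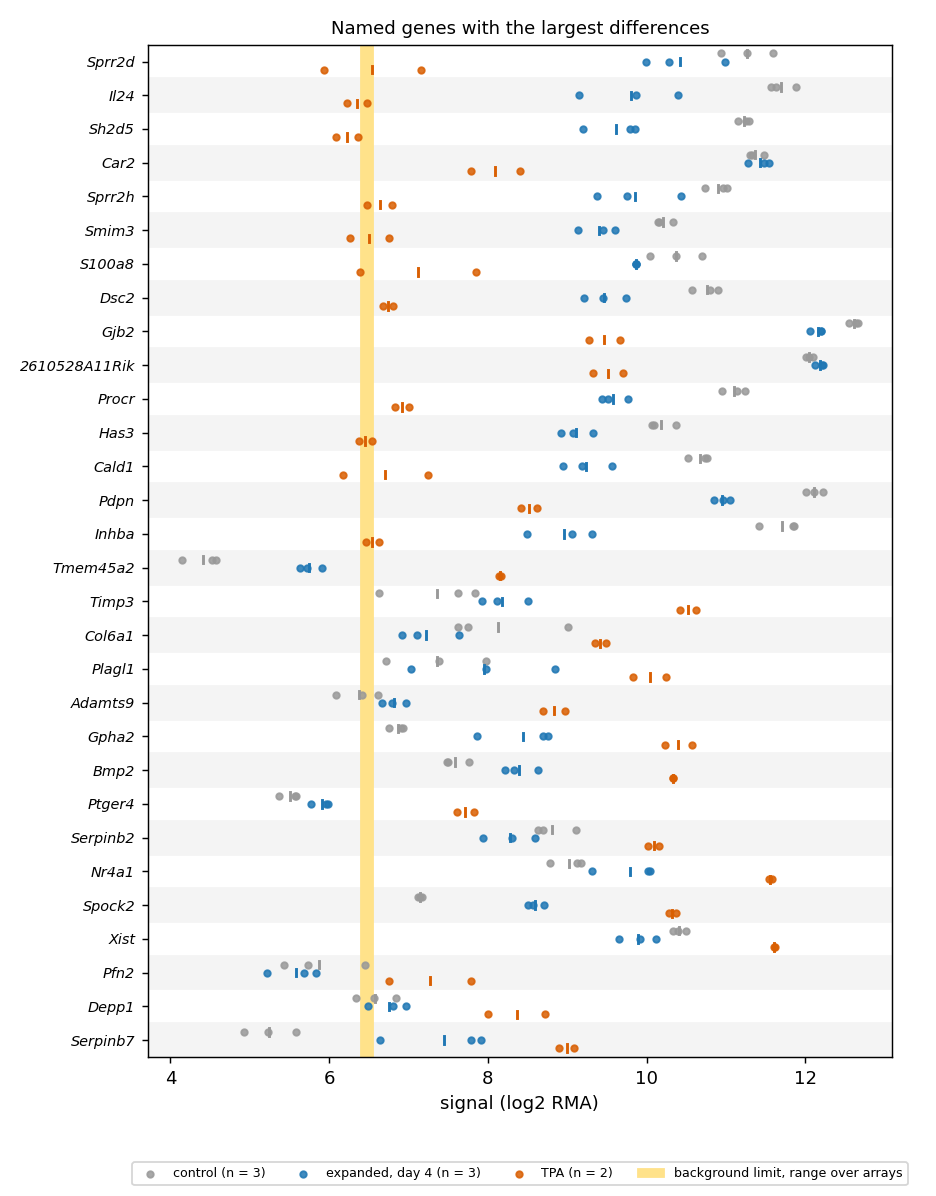
Signal of the 15 largest rises (upper rows) and the 15 largest falls (lower rows) on each array (log2 RMA, horizontal), with 1 dot per array, a bar at each group mean and the range of the background limit shaded. Expanded and TPA arrays do not overlap in any row, by the rule that chose the genes; control means lie beyond the expanded means, on the side away from TPA, in 13 of the 15 rises and 11 of the 15 falls.

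The small proline-rich genes, whose products are crosslinked into the cornified envelope and which are induced in wounded or inflamed epidermis, were higher in the arrays labelled expanded where they passed. Of 9 measured members 4 passed, all upward, against 3.16% of all genes, and these 4 passed in each of the 17 fits. The list median was 0.45, or 0.32 with signals raised to the limit. Sprr2h was at 9.38, 10.43 and 9.76 in expanded arrays and at 6.48 and 6.79 in TPA arrays (3.22 ± 0.26, adjusted p = 0.000519). Sprr1b was at 10.06, 10.27 and 10.37 against 8.92 and 8.60 (1.48 ± 0.15, adjusted p = 0.00147). Sprr2a1, close to the top of the scale, was at 13.50, 13.56 and 13.50 against 12.87 and 12.93 (0.62 ± 0.08, adjusted p = 0.00347). The groups do not overlap in these genes, as in every gene that passed. Sprr2a1 differed from the other 3 in that its control mean, 13.17 ± 0.08 (SD, n = 3), lay below the expanded arrays, while the control means of Sprr1b (11.23 ± 0.21) and Sprr2h (10.90 ± 0.15) lay above them. Sprr1a (0.07 ± 0.31) and Sprr2k (0.32 ± 0.12) did not pass, and Sprr2f, Sprr2i and Sprr3 lay under the limit in both groups. Members of this family are similar in sequence, and whether a probe set also reads its neighbours was not tested.

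The promoters of Sprr2d and Sprr2h are shown because they belong to the genes with the largest rises, lie near each other on mouse chromosome 3 and both carry the AP-1 motif. The sequences are the 250 bases upstream of the RefSeq gene start (build GRCm38.p6, plus strand, 5′ to 3′), chr3:92338890-92339139 for Sprr2d and chr3:92385435-92385684 for Sprr2h. Capitals mark the motif, TGAGTCA, the 7-base site of Fos and Jun dimers, whose first base lies 193 bases upstream of the start in Sprr2d and 198 in Sprr2h.
Sprr2d: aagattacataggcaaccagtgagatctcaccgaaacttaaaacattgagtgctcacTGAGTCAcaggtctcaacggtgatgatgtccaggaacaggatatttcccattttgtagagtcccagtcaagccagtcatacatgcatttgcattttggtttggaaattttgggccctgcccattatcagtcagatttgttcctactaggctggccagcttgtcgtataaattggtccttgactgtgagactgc
Sprr2h: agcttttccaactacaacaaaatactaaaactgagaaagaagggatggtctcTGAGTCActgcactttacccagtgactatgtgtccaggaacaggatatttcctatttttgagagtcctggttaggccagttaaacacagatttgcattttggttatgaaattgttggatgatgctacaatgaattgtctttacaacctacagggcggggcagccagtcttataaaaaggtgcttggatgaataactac
A global alignment of the 2 sequences had 169 identical and 71 mismatched positions and 20 gaps, so that 70.4% of the aligned bases were identical. Each holds the motif once, in a similar place.

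Stress keratins and wound genes were mostly higher in expanded arrays. Of 11 measured members 6 were higher and 1 lower, with a list median of 0.89. With single arrays left out, 5 to 7 passed, and the lowest count came without EXPD4 replicate 1 or 2. S100a8, a subunit of the antimicrobial and inflammatory protein calprotectin, was at 9.86 in all 3 expanded arrays and at 7.85 and 6.39 in TPA arrays (2.74 ± 0.36, adjusted p = 0.00405). Its partner S100a9 was at 9.73, 9.80 and 9.83 against 8.75 and 7.12 (1.86 ± 0.40, adjusted p = 0.0309), and lost its call without control replicate 2 or 3 or any 1 of the expanded arrays (adjusted p = 0.0515 to 0.0843). TPA replicate 2 was the lower of the TPA arrays in both genes. Krt16 (0.75 ± 0.07, adjusted p = 0.00109) and Krt6a (0.60 ± 0.09, adjusted p = 0.00599) passed in every fit. Krt6b was at 12.67, 12.75 and 12.62 in expanded arrays but at 6.47 and 11.27 in TPA arrays, so that a difference of 3.81 ± 1.06 did not pass (adjusted p = 0.0788). Serpinb2, a plasminogen activator inhibitor of keratinocytes, ran the other way, at 7.93, 8.59 and 8.31 against 10.02 and 10.16 (-1.81 ± 0.20, adjusted p = 0.00192). The other 2 that passed, Lcn2, a siderophore-binding protein (1.14 ± 0.24), and Serpinb3a, a protease inhibitor (0.89 ± 0.18), both lost their calls without TPA replicate 2 (adjusted p = 0.132 and 0.0887). Lcn2 also lost it without EXPD4 replicate 1 or 2, and Serpinb3a without TPA replicate 1.

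The programme of terminal differentiation showed no common direction. Of 25 measured suprabasal keratins and envelope genes 1 was higher and 1 lower, and the median was 0.01. Krt80, a keratin of differentiating cells, was at 8.437, 8.107 and 7.9996 in expanded arrays and at 9.38 and 9.42 in TPA arrays (-1.21 ± 0.13, adjusted p = 0.00198). Tgm1, the transglutaminase that crosslinks the envelope, differed by 1.04 ± 0.20 (adjusted p = 0.0206), a call lost without EXPD4 replicate 2 or 3 or either TPA array (adjusted p = 0.0521 to 0.109). None of 10 hard keratins passed, with 5 under the limit in both groups. Krt36 was at 12.14, 11.86 and 11.87 against 12.34 and 12.20, and Krt84 at 11.15, 10.85 and 10.52 against 11.16 and 11.06, with overlap only in Krt84, while the control means were 7.45 and 6.96. Of 17 transcription factors of epidermal identity 3 were lower and 0 higher. They included Hopx, a homeodomain cofactor, at 10.72, 10.70 and 10.69 against 11.30 and 11.52 (-0.71 ± 0.10, adjusted p = 0.00588), and Gata3, at 7.36, 7.27 and 7.34 against 7.93 and 8.05 (-0.67 ± 0.09, adjusted p = 0.00528). Klf4 (-0.36 ± 0.07) lost its call without EXPD4 replicate 1 or 2 or either TPA array (adjusted p up to 0.0825).

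**Figure D3:**
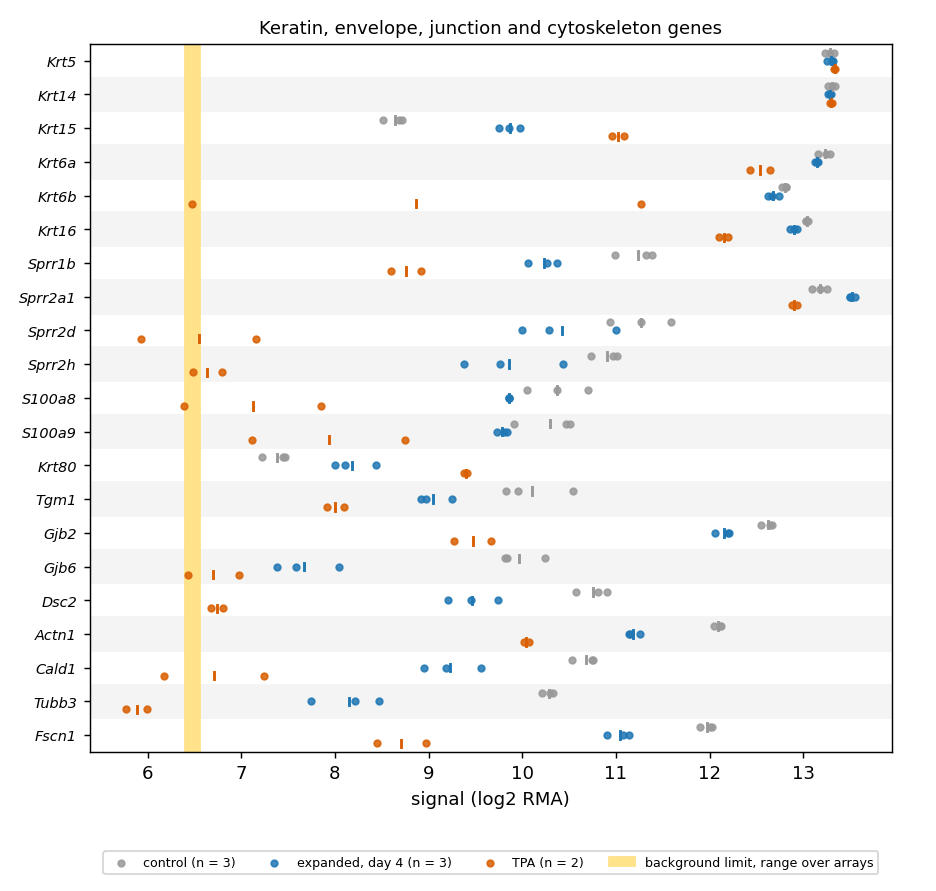
Signal of keratin, envelope, junction and cytoskeleton genes on each array (log2 RMA, horizontal), 1 dot per array with a bar at each group mean; the shaded band is the range of the background limit. Krt5 and Krt14 lie close together in all 3 groups, Krt15 and Krt80 are highest in TPA arrays, and the TPA arrays of Krt6b lie at 6.47 and 11.27.

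Of 14 genes of the basal layer, its hemidesmosomes and their laminin, 2 were lower and 2 higher, with a median of -0.03. Krt15, a keratin of quiescent basal and follicle cells, was at 9.98, 9.86 and 9.75 in expanded arrays, at 10.96 and 11.08 in TPA arrays and at 8.64 ± 0.11 (SD, n = 3) in control arrays (-1.16 ± 0.10, adjusted p = 0.000739), and passed in every fit. Dst, which encodes dystonin and anchors keratin filaments at hemidesmosomes, was lower (-0.46 ± 0.08), while Itgb1 and Lama3, a laminin chain, were higher by 0.37 ± 0.08 and 0.38 ± 0.09. With probe sets averaged, Itgb1 differed by 0.19 (adjusted p = 0.174) and Lama3 by 0.08 (adjusted p = 0.727). All 3 calls depended on single arrays: without TPA replicate 1 the adjusted p was 0.0662 for Dst, 0.176 for Itgb1 and 0.228 for Lama3. Lama3 also lost its call without each of the other arrays except TPA replicate 2, and Itgb1 without control replicate 2 or any 1 of the expanded arrays. None of 7 integrin subunits of focal adhesions passed.

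Gap junction and desmosome genes moved singly. Gjb2, an epidermal connexin induced in wounds and hyperplasia, was at 12.06, 12.20 and 12.20 in expanded arrays and at 9.67 and 9.27 in TPA arrays (2.69 ± 0.12, 6.44-fold, adjusted p = 2.59e-05). Gjb6, a connexin of the same cells, was at 7.38, 7.58 and 8.05 against 6.98 and 6.43 (0.97 ± 0.23, adjusted p = 0.0462). Its call was lost without any 1 of the control arrays, EXPD4 replicate 2 or 3, or TPA replicate 2 (adjusted p up to 0.196). Gja1 and Gjb5 both differed by 0.21 and did not pass. Dsc2, a desmosomal cadherin, was at 9.21, 9.45 and 9.75 against 6.67 and 6.80 (2.73 ± 0.16, adjusted p = 7.68e-05), with 1 other probe set past the threshold in the same direction. Of the 18 measured genes of desmosomes, adherens and tight junctions, Cdh3, or P-cadherin, was the only other to pass (0.32 ± 0.07, adjusted p = 0.0409), in the full set of arrays but with none of the 8 left out. The list median was -0.01, and Dsp, Jup and Pkp1 differed by -0.00 to 0.03.

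Within the lists of actin cytoskeleton genes and tubulins, members that passed were higher in expanded arrays, apart from the transcription factor Srf. Outside these lists the direction was not uniform: Pfn2, the actin regulator among the largest falls above, was lower. Of 20 measured actin cytoskeleton genes and targets of SRF, the serum response factor, 6 were higher and 1 lower, with a median of 0.23 beside 0.03 over all genes. With 1 array left out 5 to 7 passed, 5 without EXPD4 replicate 2 or 3 or TPA replicate 1. Cald1, the actin-binding caldesmon, was at 8.95, 9.56 and 9.18 in expanded arrays and at 7.24 and 6.17 in TPA arrays (2.52 ± 0.29, adjusted p = 0.00223). Actn1, an actin crosslinker of adhesions, was at 11.15, 11.26 and 11.14 against 10.07 and 10.02 (1.14 ± 0.08, adjusted p = 0.000175). Pdlim7 differed by 1.02 ± 0.10 and Cnn2, a calponin, by 0.47 ± 0.08. The 1 other probe set of Pdlim7 differed with the opposite sign and did not pass. Srf itself was at 10.67, 10.50 and 10.52 against 11.09 and 11.15 (-0.56 ± 0.08, adjusted p = 0.00596), a call lost when its probe sets were averaged (-0.32, adjusted p = 0.122). Of 9 tubulins 3 were higher. Tubb3, a beta-tubulin best known from neurons, was at 8.48, 7.75 and 8.22 with both TPA arrays under the limit, higher by at least 1.67 (adjusted p = 0.000519), and stood at 10.28 ± 0.06 in control arrays. Tubb6 differed by 0.997 ± 0.09 (adjusted p = 0.000764). Tubb2a differed by 0.68 ± 0.13 and lost its call without EXPD4 replicate 2 or either TPA array (adjusted p up to 0.0997). The remaining 6 tubulins ranged from -0.56 to 0.13.

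AP-1 subunits were lower in the arrays labelled expanded than in those labelled TPA. Of 11 measured subunits 6 were lower, against 2.81% of all genes, and 0 higher, with a median of -0.45. Fosl1, the Fra-1 subunit, was at 10.18, 10.45 and 9.93 in expanded arrays and at 11.42 and 11.51 in TPA arrays (-1.28 ± 0.14, adjusted p = 0.00162). Jun was at 11.22, 11.12 and 10.90 against 11.98 and 11.95 (-0.88 ± 0.12, adjusted p = 0.00426), and Atf3, a stress-induced member, at 12.05, 11.83 and 11.62 against 12.70 and 12.70 (-0.87 ± 0.12, adjusted p = 0.00604). These 3 passed in every fit. All their expanded arrays lay below both TPA arrays, as in every gene that passed as lower. Their control means differed in place: Fosl1, at 10.97 ± 0.04 (SD, n = 3), lay between the groups, while Jun (10.76 ± 0.14) and Atf3 (11.53 ± 0.10) lay below both. Junb (-0.57 ± 0.10), Fosb (-0.57 ± 0.10) and Jund (-0.45 ± 0.10) were also lower. Junb lost its call without TPA replicate 2 (adjusted p = 0.0687), Fosb without either TPA array (adjusted p = 0.0743 and 0.0507), and Jund without any 1 of the expanded or TPA arrays (adjusted p = 0.059 to 0.126). With single arrays left out 3 to 6 subunits passed, 3 of them without TPA replicate 2. Fos (-0.22 ± 0.07, adjusted p = 0.139), Fosl2 and Batf3 did not pass, and Jdp2 and Batf lay under the limit.

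The other immediate early genes ran the same way. Of 17 measured, 8 were lower and 0 higher, and the median was -0.56. Nr4a1, an orphan nuclear receptor, was at 10.04, 10.01 and 9.32 in expanded arrays and at 11.58 and 11.54 in TPA arrays (-1.77 ± 0.21, adjusted p = 0.00295). Btg2, an antiproliferative gene, was at 10.68, 10.49 and 10.10 against 11.65 and 11.50 (-1.16 ± 0.15, adjusted p = 0.00408). Nr4a3 differed by -1.01 ± 0.14 and Egr1 by -0.69 ± 0.10 (adjusted p = 0.00599). EXPD4 replicate 3 was the lowest expanded array in each of these 4 genes. These 4 passed in every fit. The others, Maff, Ier2, Klf6 and Myc, ranged from -0.97 to -0.39, and all 4 lost their calls without TPA replicate 1 (adjusted p = 0.0846 to 0.197). Single control, expanded or TPA arrays besides it ended the calls of Ier2, Klf6 and Myc. In all, 5 to 8 of the list passed with single arrays left out, the lowest count without control replicate 2, EXPD4 replicate 3 or TPA replicate 1. Cells of all groups were detached in trypsin overnight and sorted, a handling that can itself induce these genes. Its part in the difference was not tested, and no measure of handling time was used here.

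Genes known to be driven by YAP and TAZ were lower in expanded arrays where they passed. Of 16 measured, which include Yap1 and Wwtr1 themselves, 5 were lower and 0 higher, with a median of -0.20. All 5 passed in every fit. Ccn1, a secreted matricellular protein, was at 10.82, 10.57 and 10.24 in expanded arrays and at 12.08 and 12.06 in TPA arrays (-1.53 ± 0.16, adjusted p = 0.00147). Ptpn14, a phosphatase that restrains YAP, was at 8.79, 8.69 and 8.36 against 9.68 and 9.71 (-1.08 ± 0.15, adjusted p = 0.00466). F3, tissue factor, was at 7.94, 7.97 and 7.70 against 8.95 and 8.80 (-1.002 ± 0.12, adjusted p = 0.00266), and Crim1 differed by -0.92 ± 0.11. Gadd45b, at -0.54 ± 0.08, is also an immediate response gene. The groups do not overlap in these 5 genes, as in every gene that passed. The EXPD4 replicate 3 array was the lowest of its group in Ccn1, Ptpn14 and F3. Yap1 itself did not pass (0.01 ± 0.09), nor did Wwtr1, which encodes TAZ (-0.19 ± 0.21) or Amotl2 (0.27 ± 0.17). Ccn2 was at 7.30 and 5.96 in TPA arrays and under the limit in expanded arrays, and did not pass (adjusted p = 0.192).

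**Figure D4:**
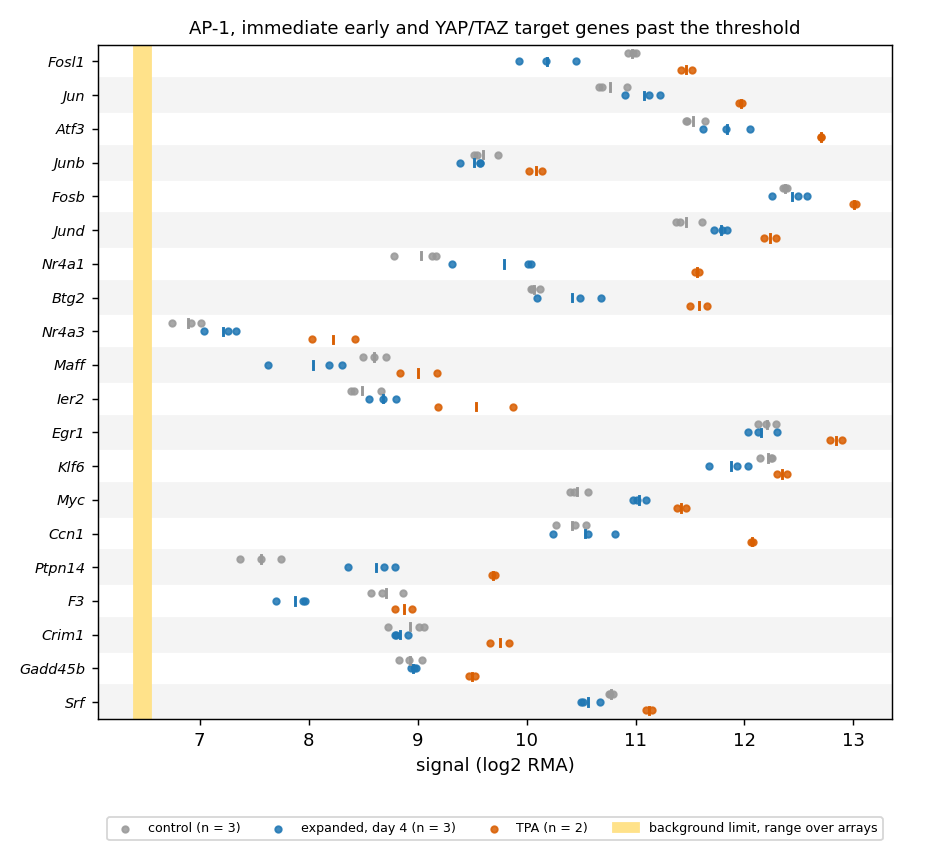
Signal of AP-1, immediate early and YAP/TAZ target genes that passed, with Srf in the last row, on each array (log2 RMA, horizontal), 1 dot per array with a bar at each group mean. TPA arrays lie above every expanded array in each row, as in every gene that passed as lower. All 3 control arrays lie above the expanded ones in Fosl1, Maff, Klf6, F3 and Srf and below them in Jund, Nr4a1, Nr4a3, Myc and Ptpn14.

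Growth factor and MAPK genes were divided. Of 21 measured, 3 were higher and 4 lower, and the median was -0.06. All 4 lower genes encode feedback inhibitors, while Dusp4, Dusp6, Spred2, Spred3, Spry2 and Spry4 did not pass. Dusp1, a MAPK phosphatase, was at 12.10, 12.04 and 11.88 in expanded arrays and at 12.60 and 12.63 in TPA arrays (-0.61 ± 0.09, adjusted p = 0.00882), and Spred1 differed by -0.69 ± 0.10 (adjusted p = 0.00757). The ligand Tgfa, transforming growth factor alpha, was at 8.39, 8.25 and 8.89 against 7.19 and 7.67 (1.08 ± 0.20, adjusted p = 0.0168), a call lost without TPA replicate 1 (adjusted p = 0.0964). Ereg, the ligand epiregulin, was nominally higher but lay under the limit in both groups, so that no fold is given. Errfi1 and Spry1, feedback inhibitors too, differed by -1.26 ± 0.24 and -0.75 ± 0.18, and both calls were lost without either TPA array (adjusted p = 0.0717 to 0.139). That of Spry1 was also lost without any 1 of the control arrays or EXPD4 replicate 2 or 3. Phlda1 differed by 0.93 ± 0.18, a call lost without TPA replicate 2 (adjusted p = 0.101). Left out singly, the arrays gave 4 to 7 calls, with 4 without TPA replicate 2. Of 15 phorbol ester receptors and protein kinase C substrates 2 were higher, the substrates Marcks (0.54 ± 0.09) and Marcksl1 (1.20 ± 0.28), and 5 lay under the limit. Marcks lost its call without TPA replicate 1 (adjusted p = 0.071), and Marcksl1 without each array except TPA replicate 1 (adjusted p = 0.0678 to 0.108).

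Secreted signals separated into groups of opposite direction. Of 25 keratinocyte cytokines and chemokines 3 were higher and 4 lower, and 11 lay under the limit in both groups. Beside Il24, the cytokine Il1f9, an interleukin-36 of inflamed skin, was at 10.88, 10.98 and 10.92 in expanded arrays and at 9.10 and 9.90 in TPA arrays (1.43 ± 0.20, adjusted p = 0.00495). The 4 lower genes were chemokines. Ccl20 was at 6.75, 6.63 and 6.43 against 7.83 and 7.96 (-1.29 ± 0.12, adjusted p = 0.000885), Cxcl14 at 10.42, 10.63 and 10.12 against 11.65 and 11.53 (-1.20 ± 0.16, adjusted p = 0.00459), and Cxcl16 at 9.78, 9.82 and 9.64 against 10.74 and 10.82 (-1.03 ± 0.09, adjusted p = 0.000852). These 3, Il24 and Il1f9 passed in every fit, with no overlap between the groups, as in every gene that passed. Ccl27a (-0.83 ± 0.20, adjusted p = 0.0456) lost its call without control replicate 2 or any 1 of the expanded or TPA arrays (adjusted p = 0.0588 to 0.158). Among 23 genes of activin, BMP and TGF-beta signalling 2 were higher, Inhba and Ltbp1, which holds latent TGF-beta in the matrix (1.05 ± 0.11, adjusted p = 0.00185), and 2 lower, Bmp2 and its target Id3 (-0.63 ± 0.11, adjusted p = 0.0154). Id3 lost its call without EXPD4 replicate 3 or TPA replicate 1 (adjusted p = 0.0534 and 0.0863). Of 21 Wnt pathway genes, Wnt3 was at 7.75, 7.56 and 7.82 against 9.15 and 8.91 (-1.32 ± 0.12, adjusted p = 0.000764), and Wnt5a, a ligand of the planar polarity branch, was higher by at least 0.82 with both TPA arrays under the limit (adjusted p = 0.00784). No other gene of that list passed.

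Matrix genes were lower where they passed, while proteases and their inhibitors showed no common direction. Of 19 matrix proteases, urokinase system genes and inhibitors 3 were higher and 4 lower. Mmp2, a gelatinase, was at 8.81, 8.82 and 8.57 in expanded arrays and at 9.48 and 9.57 in TPA arrays (-0.79 ± 0.14, adjusted p = 0.0142), and Mmp3, a stromelysin, at 9.10, 8.71 and 8.51 against 9.64 and 9.55 (-0.82 ± 0.16, adjusted p = 0.0202). Adam8, a membrane protease, was at 9.64, 9.56 and 9.69 against 8.64 and 9.05 (0.79 ± 0.14, adjusted p = 0.0139). The count depended on TPA replicate 1: without TPA replicate 1 Timp3 was the only member past the threshold, with adjusted p of 0.0554 for Mmp2, 0.101 for Mmp3 and 0.0706 for Adam8. Mmp2 and Mmp3 also lost their calls without TPA replicate 2, and Mmp3 without EXPD4 replicate 2. Of 17 matrix glycoproteins and collagens made by epidermis 4 were lower and 0 higher. Efemp1, a fibulin, was at 7.73, 8.11 and 8.07 against 8.91 and 9.35 (-1.16 ± 0.18, adjusted p = 0.00937) and passed in every fit. Fras1, Frem2 and Col7a1, which link the basement membrane to the dermis, differed by -0.73 ± 0.14, -0.98 ± 0.21 and -0.50 ± 0.08. Their calls were lost without TPA replicate 1 (adjusted p = 0.172 for Frem2 and 0.0545 for Col7a1) or without TPA replicate 2 (0.0963 for Fras1). Those of Fras1 and Frem2 were also lost without EXPD4 replicate 2 or 3, and that of Frem2 without control replicate 2 or 3.

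Prostaglandin and polyamine genes gave small counts. Of 17 prostaglandin and lipoxygenase genes 1 was higher, Ptges, a prostaglandin E synthase (0.69 ± 0.13, adjusted p = 0.0174), and 3 lower, Ptger4, Pla2g4a, the cytosolic phospholipase (-0.58 ± 0.11), and Alox12e, an epidermal lipoxygenase (-1.37 ± 0.33). Of these 4, Ptger4 alone kept its call in every fit: without TPA replicate 1 the adjusted p was 0.0927 for Ptges and 0.104 for Pla2g4a, and without TPA replicate 2 it was 0.2 for Alox12e. Leaving out EXPD4 replicate 2 ended the calls of all 3 as well. EXPD4 replicate 3 did so for Ptges and Alox12e, EXPD4 replicate 1 for Pla2g4a, and any 1 of the control arrays for Alox12e. Of 9 arginase and polyamine genes Odc1 was higher (0.84 ± 0.10, adjusted p = 0.00225), and Azin1, which protects the enzyme from breakdown, was at 7.79, 7.78 and 7.67 against 8.57 and 8.43 (-0.75 ± 0.10, adjusted p = 0.0045). Both passed in every fit and run in opposite directions. Sat1, which breaks polyamines down, was lower (-0.57 ± 0.09) and lost its call without TPA replicate 1 (adjusted p = 0.0605).

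Metabolic and redox genes were higher in expanded arrays where they passed, with few exceptions. Of 21 genes of glycolysis and the hypoxia response 7 were higher and 0 lower, with a median of 0.24. Slc16a3, the lactate exporter, was at 9.75, 9.65 and 10.20 in expanded arrays and at 8.58 and 8.30 in TPA arrays (1.43 ± 0.16, adjusted p = 0.00225). Bnip3, a hypoxia-induced mitophagy receptor, was at 10.22, 10.32 and 10.57 against 9.60 and 9.51 (0.81 ± 0.12, adjusted p = 0.00739), and Car9, a carbonic anhydrase and marker of hypoxia, was higher by at least 0.99 (adjusted p = 0.000535). Hif1a, the oxygen-sensing factor, was at 11.13, 11.15 and 11.10 against 10.52 and 10.50 (0.61 ± 0.07), but with its probe sets averaged the difference was 0.24 (adjusted p = 0.206). Between 4 and 6 of the list passed with 1 array left out, 4 without EXPD4 replicate 3 or TPA replicate 1. Of 15 NRF2-linked antioxidant genes 6 were higher and 1 lower, with a median of 0.19. Gsta4, which conjugates products of lipid peroxidation, was at 10.74, 10.66 and 10.82 against 9.29 and 9.16 (1.52 ± 0.09, adjusted p = 7.98e-05), Hmox1, heme oxygenase, at 8.11, 8.21 and 8.33 against 7.21 and 6.66 (1.28 ± 0.16, adjusted p = 0.00325), and Gclm, of glutathione synthesis, at 9.33, 9.27 and 9.17 against 8.52 and 8.30 (0.85 ± 0.13, adjusted p = 0.00761). Gstm1, another glutathione transferase, was lower (-0.64 ± 0.14), a call lost without control replicate 3, EXPD4 replicate 2 or 3 or either TPA array (adjusted p = 0.0626 to 0.124). These counts fell to 4 without EXPD4 replicate 3 or TPA replicate 2. None of 3 metallothioneins passed, and of 20 respiratory chain genes 1 did.

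Of 19 ER stress and ATF4 targets 4 were higher and 1 lower, and 1 of the 4, Chac1, lay under the limit in both groups. Trib3, a pseudokinase induced by amino acid shortage, was at 8.14, 8.11 and 8.16 in expanded arrays and at 6.80 and 6.72 in TPA arrays (1.37 ± 0.10, adjusted p = 0.000267), and Dnajb9, a chaperone of the endoplasmic reticulum, at 7.74, 7.88 and 7.73 against 8.97 and 8.98 (-1.19 ± 0.14, adjusted p = 0.00297). Both passed in every fit. The others did not: 2 to 4 of the list passed with 1 array left out, and Asns, asparagine synthetase (0.47 log2 units), kept its call without EXPD4 replicate 1 or TPA replicate 2 and lost it without each of the other arrays (adjusted p up to 0.221). Heat shock chaperones were lower where they passed, 5 of 12 with 0 higher and a median of -0.15. Hspb8, a small heat shock protein, was at 10.19, 9.95 and 10.02 against 10.97 and 10.75 (-0.80 ± 0.10, adjusted p = 0.00397), and Dnajb1, an HSP70 partner, at 11.52, 11.63 and 11.53 against 12.00 and 12.03 (-0.45 ± 0.07, adjusted p = 0.00977). Without TPA replicate 1 these 2 were the only members past the threshold. Of 15 cholesterol synthesis genes Sqle, squalene epoxidase, was at 9.25, 9.53 and 9.33 against 8.39 and 8.04 (1.16 ± 0.13, adjusted p = 0.00229), and Msmo1, a later enzyme of the pathway, was lower (-0.87 ± 0.18), a call lost without EXPD4 replicate 2 or 3 or TPA replicate 1 (adjusted p up to 0.14) and with probe sets averaged (-0.42, adjusted p = 0.101). The median of that list was -0.09.

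Genes of DNA replication were higher where they passed, and those of mitosis gave 1 call. Mki67, the marker of cycling cells, was at 10.48, 10.38 and 10.57 in expanded arrays and at 10.33 and 10.32 in TPA arrays, and did not pass (0.15 ± 0.09, adjusted p = 0.433). Of 20 DNA replication genes 3 were higher and 0 lower, with a median of 0.33. Of their differences 19 of 20 were above 0, beside 10026 of 17097 over all genes. Rrm2, a subunit of ribonucleotide reductase, was at 11.05, 11.02 and 11.16 against 10.13 and 10.17 (0.93 ± 0.08, adjusted p = 0.000764). Mcm5, of the replicative helicase, was at 11.84, 11.71 and 11.73 against 11.08 and 11.27 (0.59 ± 0.09, adjusted p = 0.00745). Cdt1, which loads that helicase, differed by 0.54 ± 0.10 (adjusted p = 0.0154) and lost its call without EXPD4 replicate 3 or TPA replicate 2 (adjusted p = 0.0545 and 0.0738). Of 21 mitosis genes, Aurka alone passed (0.37 ± 0.09, adjusted p = 0.0447), in the full set of arrays but with none of the 8 left out, and the median was 0.20. None of 12 G1 cyclins and inhibitors and none of 13 p53 targets passed, although Cdkn2b (0.57 ± 0.21) and Trp53inp1 (-0.50 ± 0.19) had the widest differences there. Of 19 ribosome biogenesis genes 18 differences were above 0, beside the same 10026 of 17097 over all genes, with a median of 0.22. The 2 that passed, Nop56 and Dkc1 (both 0.42), each lost the call without any single array except TPA replicate 2 (adjusted p up to 0.183 and 0.23).

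Circadian clock genes were lower in expanded arrays where they passed, 4 of 16 with 0 higher and a median of -0.20. Arntl, the core activator BMAL1, was at 8.04, 8.32 and 7.85 in expanded arrays, at 9.45 and 9.61 in TPA arrays and at 8.21 ± 0.09 (SD, n = 3) in control arrays (-1.46 ± 0.13, adjusted p = 0.000929). Bhlhe40, a clock repressor, was at 10.40, 10.29 and 10.23 against 11.21 and 11.20 (-0.90 ± 0.11, adjusted p = 0.00272). These 2 passed in every fit. Per1 (-0.44 ± 0.09) and Nr1d2 (-0.67 ± 0.11) lost their calls without either TPA array, and Per1 also without EXPD4 replicate 3 (adjusted p up to 0.121 and 0.0524). The hour at which skin was taken is not given in the sources used here, so that it cannot be told apart from the groups. Of 17 interferon-stimulated and antigen processing genes 4 were lower and 0 higher. Psmb8, an immunoproteasome subunit, was at 8.54, 8.27 and 8.44 against 9.19 and 9.11 (-0.74 ± 0.09, adjusted p = 0.0037) and passed in every fit, and without TPA replicate 1 it was the only member that did. The 1 other probe set of Psmb8 differed with the opposite sign and did not pass. H2-D1, an MHC class I gene with near-identical relatives, differed by -0.57 ± 0.09 on its brightest probe set and by -0.10 with its probe sets averaged (adjusted p = 0.434). Of 13 Notch genes Notch3 was higher (0.57 ± 0.10) and Hes1 lower (-0.72 ± 0.16), and neither passed without EXPD4 replicate 2 (adjusted p = 0.0519 and 0.104). Notch3 also lost its call without EXPD4 replicate 3 or TPA replicate 2, and Hes1 without control replicate 1 or 3, EXPD4 replicate 1 or TPA replicate 1.

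Markers of other cells that the sort could hold gave few calls. In the bulk of sorted cells, fewer cells of a type and less RNA per cell cannot be told apart. In the full fit none passed of 9 T cell, 9 Merkel cell, 10 endothelial, 12 macrophage and neutrophil, 10 bulge and 9 sebaceous genes. Single bulge and endothelial genes did in other fits. With the 5 compared arrays alone the endothelial gene Pecam1 passed (0.88, limma, adjusted p = 0.0169), as it did without control replicate 1. Of 10 pigment cell genes 8 lay under the limit in both groups, among them the 1 that passed, Mitf. Of 9 genes of Langerhans and other antigen-presenting cells Mfge8 passed (0.46 ± 0.09), a call lost without EXPD4 replicate 2 or 3 or either TPA array (adjusted p up to 0.0864). Fibroblast genes need naming because Col6a1 stands among the largest falls. Of 10, Col6a1 and Dcn (-1.14 ± 0.23, adjusted p = 0.0261) were lower, and both lost their calls without TPA replicate 1 (adjusted p = 0.0742 and 0.139). Dcn lost it without any 1 of the expanded arrays or TPA replicate 2 as well. The defining markers Col1a2, Pdgfra, Lum and Dpt lay under the limit in both groups, and Col1a1 was at 6.93, 6.76 and 6.62 against 6.65 and 6.71. The summed linear signal of the list was 1011 to 1611 in expanded and 1602 to 1778 in TPA arrays, so that the ranges overlap narrowly. The sum includes Vim, which differed by 1.48 in the direction opposite to Col6a1 and Dcn and was high in EXPD4 replicates 2 and 3. A sum without Vim was not taken.

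Follicle markers gave no calls in the full fit, although some differed between single arrays. The summed linear signal of the bulge list was 3873 to 5429 in expanded, 6507 to 6571 in TPA and 3463 to 3520 in control arrays. The expanded and TPA sums do not overlap, beside 35.7% of all single genes without overlap. Cd34, Lgr5 and Lhx2 lay under the limit in both of these groups. Of 9 infundibulum and upper follicle genes none passed, with a median of -0.39. Of their differences 8 were below 0, beside 7071 of 17097 over all genes. Krt79, an infundibulum keratin, was at 10.57, 10.04 and 7.51 in expanded and at 10.76 and 11.53 in TPA arrays (-1.77 ± 0.81, adjusted p = 0.281), and Defb6, a beta-defensin, at 10.04, 9.64 and 7.57 against 10.37 and 11.06 (-1.64 ± 0.90, adjusted p = 0.39). EXPD4 replicate 3 stood apart in both. EXPD4 replicates 2 and 3 also had higher Vim (9.31 and 9.75) than replicate 1 (7.06) and the TPA arrays (7.27 and 7.19), and likewise higher Cdh5, an endothelial cadherin (8.39 and 8.42, against 6.57 in replicate 1). The part of a differing share of follicle, endothelial or other cells in the gene differences above was not tested.

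**Figure D5:**
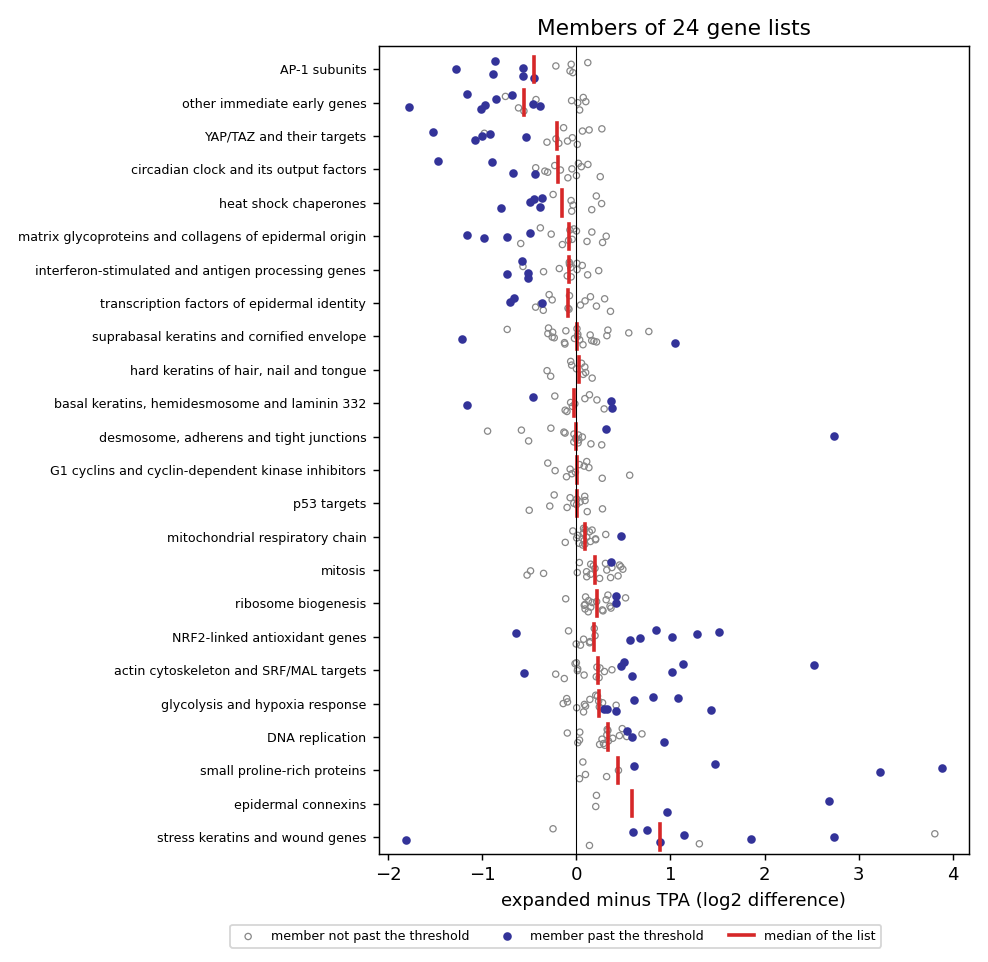
Differences between expanded and TPA arrays (log2, horizontal) for the measured members of pathway lists, 1 circle per gene, filled where it passed, with a red bar at each list's median. AP-1 and immediate early genes lie mostly to the left of 0, small proline-rich genes, connexins and stress genes mostly to the right. The medians run from -0.56 for the immediate early genes to 0.89 for the stress and wound genes.

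The AP-1 motif was looked for in the promoters of the genes that passed, since AP-1 subunits themselves differed. The window held 250 bases before and 50 after the RefSeq gene start (GRCm38.p6), and the motif was TGAGTCA or TGACTCA, which are each other's reverse complement, so that both strands were covered. It occurred in 737 of 13605 tested genes with a promoter in the table (5.42%) and in 5.2% of all promoters there. Among genes higher in expanded arrays it occurred in 27 of 435 (6.21%), and among those lower in 33 of 391 (8.44%). Of the 15 largest rises 9 had a promoter in the table and 4 held the motif, Sprr2d, Sprr2h, Procr and Cald1, and of the 15 largest falls 13 had one and 2 held it, Col6a1 and Serpinb7. Among the other genes named by the selection rule given below, F3, Mmp3 and Msmo1, which were lower, held it. So did Car9, which was higher, and Gja1, which did not pass. Genes named after their values were seen were not looked up by name. A match describes these letters only. The windows around the motif in genes of both directions, 5′ to 3′ on the strand of the gene with the motif in capitals, are printed to show its setting. Procr (chr2:155751046-155751086, plus strand) and Cald1 (chr6:34709230-34709270, plus) were higher in expanded arrays, and F3 (chr3:121723385-121723425, plus), Mmp3 (chr9:7445759-7445799, plus) and Serpinb7 (chr1:107422627-107422667, plus) were lower.
Procr: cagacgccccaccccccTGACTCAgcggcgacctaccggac
Cald1: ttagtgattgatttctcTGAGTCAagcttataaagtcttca
F3: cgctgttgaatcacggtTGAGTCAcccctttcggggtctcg
Mmp3: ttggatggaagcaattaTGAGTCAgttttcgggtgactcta
Serpinb7: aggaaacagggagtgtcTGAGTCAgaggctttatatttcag
The motif lies 46 bases upstream of the start in Mmp3, 45 in Serpinb7, 135 in F3, 154 in Procr and 197 in Cald1. The genes whose promoters hold it thus differed in both directions between the arrays labelled expanded and TPA.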

How the data were processed

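RNA from 300 sorted cells per mouse was amplified and hybridised to Affymetrix arrays. The values are log2 RMA signals deposited by the authors, with RMA named in the submitters' processing notes and no version given. Of 45141 probe sets, 28898 had 1 gene symbol in the platform annotation of 2016, 551 had several and 15588 none, and 104 were controls. The 17097 symbols were each represented by their brightest probe set, and 161 are not in the current RefSeq table.

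A limma 3.58.1 model (R 4.3.3) with 1 coefficient per group was fitted to all 8 arrays, and expanded minus TPA was tested with Benjamini-Hochberg adjustment over all genes at 0.05. The procedure was tested on simulated data. Members and lists were chosen with earlier results of these data known. Named are the 15 largest rises and falls among non-overlapping genes, the members with the lowest p in every list (at most 4), the label and gate genes, and members of small families. Named after their values were seen are Bcl2l2, Cnn2, Gadd45b, Il1f9, Ccn2, Yap1, Wwtr1, Amotl2, Lcn2, Serpinb3a, Maff, Ier2, Klf6, Myc, Errfi1, Spry1, Phlda1, Gstm1, Dsp, Jup, Pkp1, Col1a1, Col1a2, Pdgfra, Lum, Dpt, Lgr5, Lhx2, Ccl27a, Dusp4, Dusp6, Spred2, Spred3, Spry2, Spry4, Fscn1 (plotted only) and all genes of the closing observations. Alternatives were other samples, normalizations, filters, probe set rules, variance models, weights, a replicate block, a fold threshold and each array left out. Whether replicate numbers pair the arrays was not settled. Residuals of same-numbered expanded and TPA arrays correlated at 0.000 and -0.072. With 2 TPA arrays, their residuals around the group mean mirror each other, so these correlations cannot exclude a pairing.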

Additional observations from a re-analysis of the deposited data

How the results depend on the processing

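Against 1022 genes past the threshold, 541 higher and 481 lower, the 5 compared arrays alone gave 511 (257 and 254). With the replicate number as a block, a pairing the labels do not state, it was 541 (274 and 267). Requiring a fold beyond 1.5 within the test left 64 (44 and 20), and all 64 exceeded 2-fold. Testing each probe set by itself gave 1508 calls, 737 higher and 771 lower, which count probe sets rather than genes. Leaving out single arrays gave 560 to 922 calls, 285 to 489 higher and 248 to 433 lower, and 164 to 239 at 2-fold or more. Centring each array on its median moved the share of higher calls from 52.9% to 45.0%. Of 127 named genes past the threshold, 76 kept their call in the 17 fits that leave out the fold requirement, which alone ended 95 of the calls, and none reversed. The cause of these shifts was not tested, beyond the fewer arrays. With 2 TPA arrays, genes near background have only bounds.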

Other observations

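Further groups were put together after the values were seen, so their counts are a description only, beside 3.16% of all genes higher and 2.81% lower in the arrays labelled expanded than in those labelled TPA. Of 17 measured cytosolic aminoacyl-tRNA synthetases, which charge tRNAs for protein synthesis, 7 were higher in expanded arrays and 0 lower, with a median of 0.26. All 17 differences were above 0, beside 10026 of 17097 over all genes. Of these 7, Gars (0.59 ± 0.08) and Iars (0.70 ± 0.09) passed in every fit and the other 5 did not. Of 14 genes known to be induced by CREB and cyclic AMP, which overlap the immediate early list, 9 were lower and 0 higher, with a median of -0.62. Sik1, a salt-inducible kinase, differed by -1.41 ± 0.10 (limma, adjusted p = 0.000283).

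Of 12 genes known to respond to glucocorticoids 8 were lower and 0 higher, with a median of -0.58. Dusp1, Per1 and Errfi1, among those lower, are also members of lists described above. Klf9, a transcription factor, differed by -1.04 ± 0.09 (limma, adjusted p = 0.000538). Of 17 glutathione S-transferases 4 were higher and 3 lower, and of 13 carbonic anhydrases 3 were higher, Car2, Car9 and Car12. The X-inactivation transcript Xist, among the largest falls, was at 9.65, 10.12 and 9.92 in expanded and at 11.60 and 11.61 in TPA arrays (-1.71 ± 0.13). Its control arrays were at 10.41 ± 0.08 (SD, n = 3). Of the Y-linked genes, Eif2s3y was higher by 0.69 ± 0.07 and Uty by at least 0.62 with TPA arrays under the limit. Kdm5d (0.41 ± 0.25) did not pass. The sex of the mice is not given in the labels, and its part in the differences was not tested.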
